A study of Mus musculus with 12 samples.

Results

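Slc2a6, Cyp4f18, Gpr84, Plaur, Tspan32, AB124611, Lgals3bp, Nbl1, Adap1 and Tnfaip2 were followed across 4 groups of sorted mouse microglia. These 10 genes, of 55401 gene identifiers counted, were picked by name because an earlier look at the same libraries had shown a strong difference between HDAC3-deficient and WT microglia after Sham surgery, and often another difference after stroke. The values that chose them are those of miKO-Sham vs. WT-Sham and of its change after stroke (the interaction). The interaction draws on all 4 groups, the difference of WT-tFCI and WT-Sham included, so every value of the 10 genes is given as a description, with no p-value. Tests and adjusted p-values printed below are of genes outside the set. Where the 10 are said to meet calling thresholds or to be called, this too is a description and no test. No threshold was part of the choice, and all 10 passed the filter on low counts.

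Bulk RNA sequencing was performed on CD11b+CD45int microglia sorted from male mice, with 3 libraries for WT and 3 for HDAC3-miKO mice (miKO) after Sham surgery, and as many after tFCI. Every mouse carried HDAC3 loxp/loxp. WT mice were Cx3cr1 wt/wt, whereas HDAC3-miKO mice were Cx3cr1 CreER/wt, so that loss of HDAC3 in Cx3cr1-expressing cells comes together with the CreER insertion and with only 1 intact Cx3cr1 allele. Tamoxifen was given for 5 days at 6 to 8 weeks of age, and surgery followed at least 1 month later. The tFCI groups underwent transient focal cerebral ischemia, a 60 min occlusion of the middle cerebral artery, and their cells were taken on day 3, while Sham mice had the operation without occlusion. Each library combined cells from 3 to 4 hemispheres. Replicate 1 of each group was labelled batch 1 of sequencing and replicates 2 and 3 batch 2.

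HDAC3 is a histone deacetylase and the catalytic subunit of the NCoR and SMRT corepressor complexes, which transcription factors bring to enhancers and promoters to keep genes low until a signal releases them. Microglia, the resident macrophages of the brain, hold many inflammatory and metabolic genes under such restraint, and they leave the homeostatic state after ischemia. The 10 genes encode proteins of several kinds. They include a hexose transporter, a lipid-metabolizing enzyme, surface receptors, secreted proteins and regulators of membrane traffic.

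The stretch of 250 bases before the RefSeq start site of each gene was read from the RefSeq promoter table (GRCm38.p6), which held all 10. Gene positions given below come from GENCODE, whose starts can differ. The stretch reaches into the GENCODE gene for Tnfaip2, Gpr84, Adap1, Lgals3bp and Nbl1, and touches its first base for AB124611. The promoters printed are those of Slc2a6, the gene the set was named after, of the 4 genes that hold a PU box, and of Tnfaip2, whose levels ran closest to those of Tspan32. Capitals mark the PU box, the binding motif of the macrophage factor PU.1 (GAGGAA, either strand), and the AP-1 motif (TGANTCA, either strand).
Slc2a6: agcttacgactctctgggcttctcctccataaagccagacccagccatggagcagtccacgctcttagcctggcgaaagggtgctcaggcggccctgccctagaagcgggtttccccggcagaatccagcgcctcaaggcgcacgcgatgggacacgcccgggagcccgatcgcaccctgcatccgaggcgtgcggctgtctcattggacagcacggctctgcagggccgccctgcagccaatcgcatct
Cyp4f18: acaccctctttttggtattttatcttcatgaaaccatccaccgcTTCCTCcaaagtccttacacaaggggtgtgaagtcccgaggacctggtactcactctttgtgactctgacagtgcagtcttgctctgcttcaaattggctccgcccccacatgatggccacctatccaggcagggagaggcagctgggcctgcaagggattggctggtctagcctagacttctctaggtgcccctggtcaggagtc
Plaur: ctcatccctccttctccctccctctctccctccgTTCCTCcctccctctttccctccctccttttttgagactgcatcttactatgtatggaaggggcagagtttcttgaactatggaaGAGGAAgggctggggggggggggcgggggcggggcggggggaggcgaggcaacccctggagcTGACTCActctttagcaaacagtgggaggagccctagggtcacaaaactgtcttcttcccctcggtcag
Tspan32: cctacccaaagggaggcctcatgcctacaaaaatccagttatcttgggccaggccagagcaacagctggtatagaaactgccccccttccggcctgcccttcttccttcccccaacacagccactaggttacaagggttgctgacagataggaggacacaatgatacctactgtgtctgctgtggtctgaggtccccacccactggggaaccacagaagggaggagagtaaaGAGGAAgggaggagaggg
AB124611: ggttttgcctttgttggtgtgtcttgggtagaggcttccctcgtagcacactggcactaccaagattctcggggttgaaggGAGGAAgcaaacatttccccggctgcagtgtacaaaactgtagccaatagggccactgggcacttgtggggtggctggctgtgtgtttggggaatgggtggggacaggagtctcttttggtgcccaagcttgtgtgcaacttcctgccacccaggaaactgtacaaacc
Tnfaip2: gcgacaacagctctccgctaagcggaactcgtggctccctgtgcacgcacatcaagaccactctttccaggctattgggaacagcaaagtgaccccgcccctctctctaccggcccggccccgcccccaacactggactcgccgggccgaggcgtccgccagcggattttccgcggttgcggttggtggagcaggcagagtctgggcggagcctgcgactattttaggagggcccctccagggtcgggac

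These stretches lie on the minus strand at chr2:27027999-27028248 for Slc2a6 and chr8:72009627-72009876 for Cyp4f18. On the plus strand they lie at chr7:24462233-24462482 for Plaur, chr7:143004796-143005045 for Tspan32, chr9:21525927-21526176 for AB124611 and chr12:111442411-111442660 for Tnfaip2. A PU box was present in 4 of the 10 promoters (Cyp4f18, Plaur, Tspan32 and AB124611), against 23.3% of 32851 promoters of the same length. In Plaur the PU box occurred at 216 and 131 bases before the start, and an AP-1 motif, found in 6.75% of all promoters, at 69 bases before it. The PU box of Tspan32 lies 18 bases before the start, that of AB124611 169 bases and that of Cyp4f18 206 bases. None of the 10 held an interferon response element (GAAANNGAAA, 2.98% of promoters), a kappaB consensus (3.9%) or a CACGTG E-box (6.02%) in this window, each searched on both strands. The number of CG pairs in the window split the genes, with 39 in Adap1, 36 in Nbl1, 21 in Tnfaip2 and 20 in Slc2a6, against 1 to 6 in the other 6 genes and a median of 6 over all promoters. A match describes the letters only.

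Before the values, the libraries themselves need a description. Gene counts ranged from 7697864 to 9452222 per library, 30.7% to 38.5% of the reads counted. Hdac3, the targeted gene, was at 35.0, 44.0 and 46.4 CPM (counts scaled to the effective library size) in WT-Sham and at 25.8, 25.0 and 20.9 in miKO-Sham. After tFCI it was at 54.0, 52.9 and 43.9 CPM in WT and at 36.0, 27.1 and 28.9 in miKO. All miKO libraries thus lay below the WT libraries of their surgery, with log2 fold changes of -0.81 (SE 0.16) and -0.71 (SE 0.16), adjusted p = 0.00281 and 0.0127 by the edgeR quasi-likelihood test with Benjamini-Hochberg adjustment.

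miKO-Sham replicates 1 and 2 stood closer to each other than any other pair of replicates. The chi-square of their counts was 2.82 per degree of freedom, where 1 is sampling noise, while replicate 3 was at 37.8 and 40.8 from them. In the other groups, replicate 1 stood apart from replicates 2 and 3 (19.2 to 76.6), which were close to each other (3.65 to 12.9). By its label, miKO-Sham replicate 2 belongs to batch 2, but along the difference between batches seen in the other groups it lay with replicate 1, with a correlation across 16451 genes of -0.02 for replicate 1 minus 2 and 0.23 and 0.24 for these minus replicate 3. The names of the count tables of replicates 1 and 2 also share a sample code, and whether they hold the same cells was not tested. They were kept apart since the chi-square exceeded that of sampling noise, which does not show that the cells differ. Adjusted p-values below that rest on miKO-Sham count them as 2 replicates. These could be too low if both libraries hold the same cells. Results that rest on miKO-Sham were recomputed with these 2 libraries summed, with replicate 2 taken as batch 1 and without each library.

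**Figure D1:**
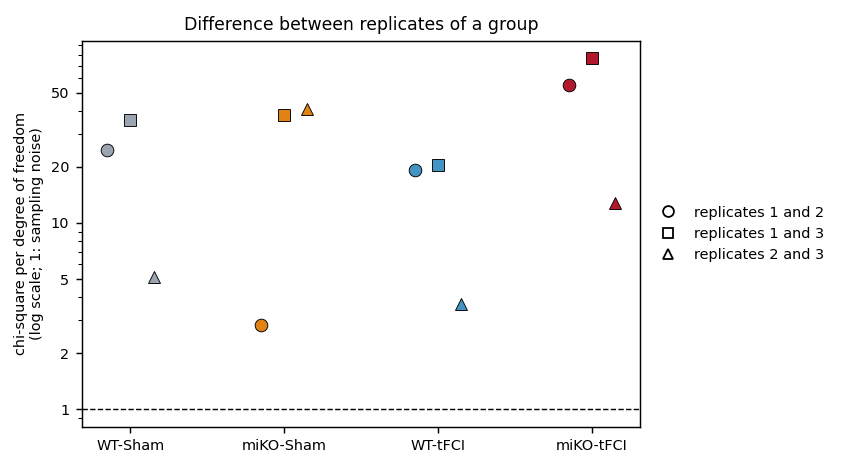
Chi-square per degree of freedom between the counts of each pair of replicates (log scale), by group, with the dashed line at sampling noise. The pair of miKO-Sham replicates 1 and 2 is the lowest at 2.82, and in the other groups the lowest pair is that of replicates 2 and 3.

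All 10 markers of microglia were detected in every group. Their summed level was 24132 to 31785 CPM in WT-Sham, 20726 to 25731 in miKO-Sham, 16983 to 18850 in WT-tFCI and 8317 to 16248 in miKO-tFCI. Markers of monocytes and macrophages, 10 genes, summed to 12.3 to 103 CPM in WT-Sham, 57.0 to 120.1 in miKO-Sham, 363 to 659 in WT-tFCI and 456 to 987 in miKO-tFCI. Of this list S100a4 was at 0 in all miKO-Sham libraries. Much of the sum in WT-tFCI was Fn1 alone, at 0.21 to 3.25 CPM in WT-Sham and 296 to 446 in WT-tFCI. Fn1 was at 122 to 358 CPM in miKO-tFCI, against the direction of the sum. Chil3 was at 44.5 to 117 CPM in WT-tFCI and 239 to 311 in miKO-tFCI. Border-associated macrophage markers, 7 genes, summed to 101 to 129.6 CPM in WT-Sham, 74.9 to 307 in miKO-Sham, 175 to 269 in WT-tFCI and 339 to 816 in miKO-tFCI. In miKO-Sham the 307 CPM was replicate 3 alone, against 76.1 and 74.9 in replicates 1 and 2. In bulk RNA, fewer cells of a type and less RNA per cell cannot be told apart, and the part of these cells in the values that follow was not tested.

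In WT-tFCI vs. WT-Sham, all 10 genes were higher after tFCI, with log2 fold changes of 0.76 to 5.61 (median 1.84, against 0.02 over all 16451 genes tested). The difference was largest in Slc2a6 and Cyp4f18, which were near 2 CPM in WT-Sham, and smallest in Tnfaip2 and Tspan32. All 10 met the thresholds used for calling genes (an adjusted p under 0.05 by the edgeR quasi-likelihood test and a log2 fold change above 0.58 in size), which 20.9% of all genes met as higher and 32.6% in either direction. For all 10, each WT-tFCI library lay above each WT-Sham library, as was the case for 26.9% of genes. Low WT-Sham levels and an interaction below 0, for which 9 of the 10 were picked, both go with a high value of this difference, so that these counts are no test of it. Within batch 1 and within batch 2 the difference was above 0 for every one of them.

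Markers of several other cell types also differed between WT-tFCI and WT-Sham. Of the endothelial and mural markers 6 of 7 rose, and their sum was 17.7 to 23.1 CPM in WT-Sham and 36.6 to 147 in WT-tFCI. Of other lists, 3 of 9 monocyte and macrophage markers, 3 of 5 oligodendrocyte, 3 of 6 astrocyte, 2 of 5 dendritic cell and 2 of 7 border-associated macrophage markers tested rose. Among microglia markers 7 of 10 fell, as did 1 of 8 neutrophil, 1 of 5 oligodendrocyte and 1 of 6 astrocyte markers. In miKO-Sham vs. WT-Sham 1 of 10 microglia markers rose and 4 fell, against 8.58% and 6.8% of all genes. Of 7 endothelial and mural markers 2 rose and 1 fell. Of 6 astrocyte and of 5 oligodendrocyte markers 1 rose and 1 fell. In the dendritic cell, border-associated macrophage and neuron lists 1 marker rose and 0 fell, and 1 of 4 B cell markers fell. Among monocyte and macrophage, neutrophil, and T and NK cell markers 0 were called. The part of all these markers in the levels of the 10 genes was not tested.

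**Figure D2:**
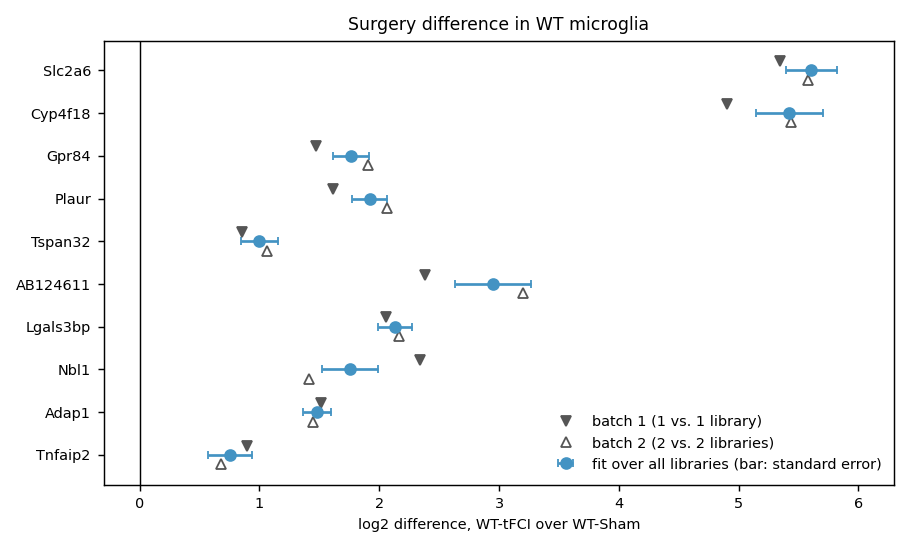
Log2 difference of WT-tFCI over WT-Sham for each gene, from the fit over all libraries (circles, bars give the standard error) and within each sequencing batch (triangles). All 10 circles and all 20 triangles lie above 0, from 0.76 for Tnfaip2 to 5.61 for Slc2a6 in the fit.

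Read by the CPM of each library, the genes differed in where HDAC3-miKO and tFCI brought them. Slc2a6, Lgals3bp and Adap1 had about the same level in miKO-Sham as in WT-tFCI. Tspan32, Tnfaip2 and AB124611 were more than 5-fold higher in miKO-Sham than in WT-tFCI by group mean. Plaur lay between these patterns. In Cyp4f18, as in Tspan32 and Tnfaip2, none of the 4 groups overlapped, and its levels rose from WT-Sham through miKO-Sham and WT-tFCI to miKO-tFCI. Gpr84 was in the WT-Sham range in miKO-tFCI, and Nbl1 was lowest in miKO-Sham and highest in miKO-tFCI.

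**Figure D3:**
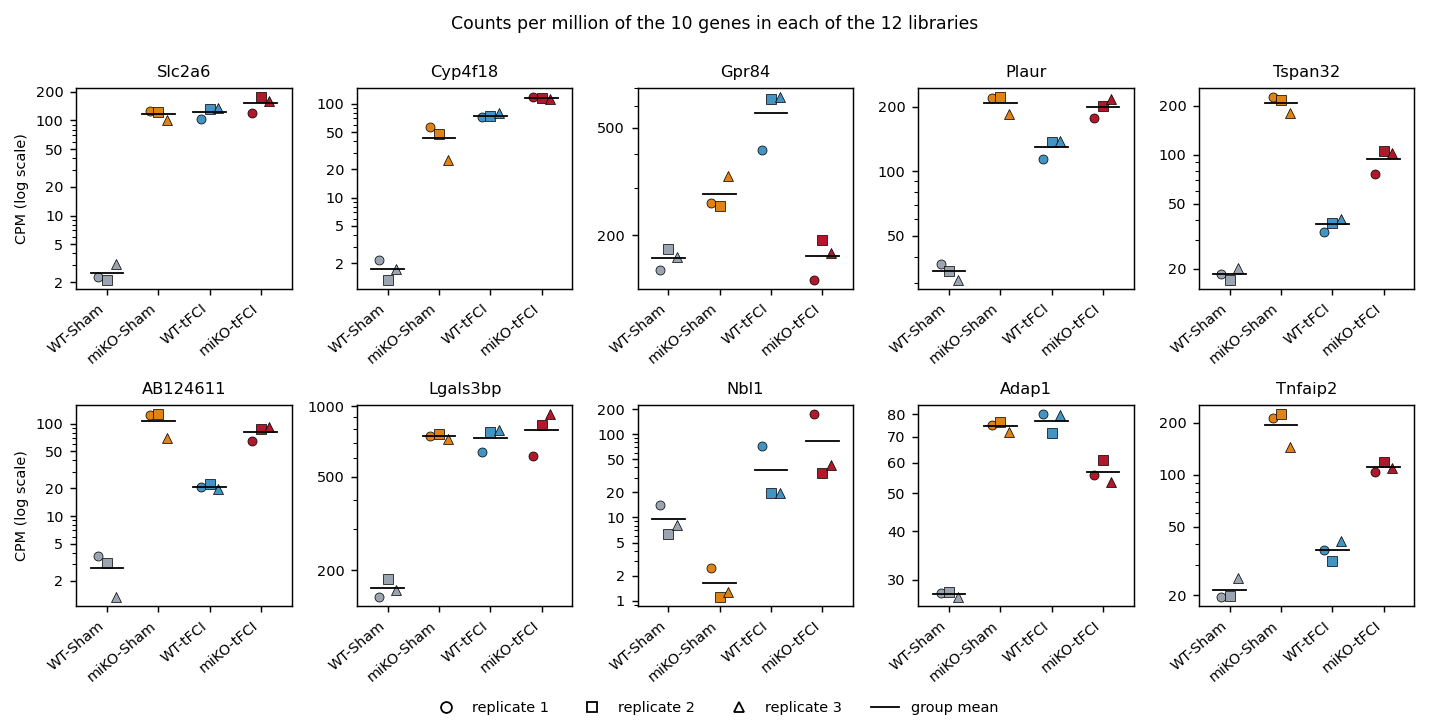
CPM (log scale, a different range in each panel) of the 10 genes in each of the 12 libraries, with the replicate given by the shape of the point and the group mean by a bar. Slc2a6 sits between 2.13 and 3.08 CPM in WT-Sham and between 100.3 and 176 in the other 9 libraries, whereas Gpr84 in miKO-tFCI lies within 137 to 193 CPM, overlapping WT-Sham.

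Slc2a6 (ENSMUSG00000036067.12, chr2:27021363-27027998, minus strand, 7 exons in the merged annotation) encodes GLUT6, a hexose transporter found on lysosomes. It was nearly silent in WT-Sham, at 2.28, 2.13 and 3.08 CPM, which were 19 to 30 reads. In miKO-Sham it was at 126, 122 and 100.3 CPM, and in WT-tFCI at 102, 133 and 134. HDAC3-miKO without stroke and stroke without HDAC3-miKO thus brought it into the same range, 46.5-fold and 49.4-fold over WT-Sham by group mean. When both were present, in miKO-tFCI, it was at 119, 176 and 158 CPM, and this range overlapped that of WT-tFCI. The log2 fold change of WT-tFCI vs. WT-Sham was 5.61 (SE 0.21). The genotype difference was 5.54 (SE 0.21) on the log2 scale after Sham surgery and 0.29 (SE 0.15) after tFCI.

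Other hexose transporters took other courses. Of 11 other Slc2a genes, 7 were expressed enough to be tested. Slc2a1, the glucose transporter GLUT1, rose in WT-tFCI vs. WT-Sham by 0.88 (log2, SE 0.19, adjusted p = 0.00246), and in miKO-Sham vs. WT-Sham it fell by 0.68 (SE 0.20, adjusted p = 0.0262). Slc2a5, the fructose transporter GLUT5 typical of microglia, went the other way after tFCI, with 705 ± 62.3 CPM (SD, n = 3) for WT-Sham and 250.1 ± 8.58 for WT-tFCI. It fell by 1.49 (SE 0.20, adjusted p = 4.0e-05) in that comparison, by 0.75 (SE 0.19, adjusted p = 0.0139) in miKO-Sham vs. WT-Sham and by 1.09 (SE 0.20, adjusted p = 0.00300) in miKO-tFCI vs. WT-tFCI. No gene of this list was called in the interaction, the difference between the genotype effects after tFCI and after Sham surgery.

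Cyp4f18 (ENSMUSG00000003484.4, chr8:71988482-72009626, minus strand) encodes a cytochrome P450 that hydroxylates leukotriene B4. WT-Sham libraries held 2.16, 1.34 and 1.74 CPM, or 12 to 18 reads. The levels then ascended through miKO-Sham (56.4, 47.4 and 25.0 CPM), WT-tFCI (71.7, 73.4 and 79.7 CPM) and miKO-tFCI (118, 116 and 113 CPM). No neighbouring groups in that order overlapped. In miKO-Sham, replicate 3 held less than replicates 1 and 2. The surgery difference in WT was 5.42 (log2, SE 0.28). Between miKO and WT the difference was 4.59 (SE 0.28) after Sham surgery and 0.62 (SE 0.20) after tFCI. Zfp961 on the other strand overlaps 181 exon bases of Cyp4f18 (9.76%), and the library kit does not mark strand. In WT-Sham Zfp961 was at 7.09 to 8.18 CPM, above Cyp4f18. Zfp961 stayed below Cyp4f18 outside WT-Sham, at 12.7 to 21.5 CPM in miKO-Sham and 22.6 to 30.9 CPM in WT-tFCI. It rose by 1.28 (log2, SE 0.22, edgeR quasi-likelihood adjusted p = 0.000761) in miKO-Sham vs. WT-Sham. In WT-tFCI vs. WT-Sham it rose by 1.88 (SE 0.22, adjusted p = 1.1e-05, same test). Its part in the Cyp4f18 counts was not tested.

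Among 20 genes of leukotriene synthesis, clearance and receptors, 11 were tested. In WT-tFCI vs. WT-Sham 4 rose and 3 fell. Ptgr1, which inactivates leukotriene B4 by another route, rose there by 1.96 (log2, SE 0.19, adjusted p = 2.5e-06), whereas in miKO-Sham vs. WT-Sham it fell by 1.14 (SE 0.22, adjusted p = 0.00198). Cyp4f13, of the same P450 family, fell by 1.16 (SE 0.16, adjusted p = 7.3e-05) after tFCI in WT and differed by -0.01 (SE 0.16) between miKO-Sham and WT-Sham, adjusted p = 0.985. Alox5, which starts leukotriene synthesis, was lower in miKO than in WT after either surgery, with log2 fold changes of -0.85 (SE 0.21, adjusted p = 0.00902) and -1.02 (SE 0.21, adjusted p = 0.00632).

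Gpr84 (ENSMUSG00000063234.5, chr15:103308235-103310612, minus strand, 2 exons) encodes a G protein-coupled receptor for medium-chain fatty acids. Its genotype difference was above 0 after Sham surgery and below 0 after tFCI, as in Adap1. WT-Sham libraries were at 149, 177 and 166 CPM and miKO-Sham libraries at 263, 256 and 331. WT-tFCI libraries were at 412, 637 and 649 CPM, but miKO-tFCI libraries were at 137, 193 and 172. The latter overlapped WT-Sham and lay below every other library with HDAC3-miKO or tFCI. In WT the surgery difference was 1.76 (log2, SE 0.15). The genotype difference was 0.79 (SE 0.14) after Sham surgery and -1.75 (SE 0.15) after tFCI. Counts scaled by library size alone gave 0.52 for the first, below the 0.58 used for calling.

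The count of Gpr84 cannot be separated from that of Gm49482, which lies on the other strand and shares 681 of the 1725 exon bases (39.5%). Gm49482 had the same course, with 104 to 122 CPM in WT-Sham, 182 to 220.4 in miKO-Sham, 293 to 472 in WT-tFCI and 93.7 to 132 in miKO-tFCI.

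Of 12 other receptors for fatty acids and metabolites, 6 were tested. In WT-tFCI vs. WT-Sham 5 rose and 1 fell, and in miKO-Sham vs. WT-Sham 4 rose and 1 fell. Hcar2, the receptor for niacin and beta-hydroxybutyrate, had 7.45 ± 2.87 CPM (SD, n = 3) in WT-Sham, 48.8 ± 9.07 in miKO-Sham, 85.8 ± 30.8 in WT-tFCI and 67.7 ± 23.9 in miKO-tFCI. Its genotype effect after tFCI was lower than after Sham surgery by -3.14 (log2, SE 0.35, adjusted p = 0.000227). Gpr65, a proton-sensing receptor, was at 8.88 ± 2.89, 60.1 ± 12.1, 60.8 ± 10.8 and 81.9 ± 29.4 CPM in the same order of groups, with an interaction of -2.34 (SE 0.38, adjusted p = 0.00333). Gpr183, a receptor for oxysterols, was lower with HDAC3-miKO after either surgery, by -1.17 (SE 0.13, adjusted p = 2.1e-05) and -1.12 (SE 0.13, adjusted p = 0.000132), and its interaction was 0.05 (SE 0.19, adjusted p = 0.934). All these are edgeR quasi-likelihood tests with Benjamini-Hochberg adjustment. An antisense gene, Gm47566, overlaps 24.7% of the exon bases of Gpr65.

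Plaur (ENSMUSG00000046223.10, chr7:24462484-24475968, plus strand, 6 exons) encodes uPAR, the receptor that holds urokinase at the cell surface. WT-Sham libraries were at 37.1, 34.2 and 31.3 CPM and miKO-Sham libraries at 219, 222 and 185. WT-tFCI libraries were at 114, 137 and 138 CPM and miKO-tFCI libraries at 178, 202 and 216. The miKO groups overlapped each other, and both lay above WT-tFCI. Within WT the tFCI over Sham difference was 1.92 (log2, SE 0.14). Between miKO and WT the difference was 2.61 (SE 0.15) after Sham surgery and 0.62 (SE 0.14) after tFCI, just over the 0.58 used for calling, and 0.48 without WT-tFCI replicate 1.

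The plasminogen activation system was the list with the most genes higher in miKO-tFCI than in WT-tFCI. Of 16 genes 13 were tested. In WT-tFCI vs. WT-Sham 7 rose and 0 fell, in miKO-Sham vs. WT-Sham 3 rose and 1 fell, and in miKO-tFCI vs. WT-tFCI 6 rose and 0 fell. Over all genes tested, 4.08% were called higher in the last comparison, in which 5 of 8 neutrophil markers, 3 of 9 monocyte and macrophage markers and 3 of 7 border-associated macrophage markers also rose. Without miKO-tFCI replicate 1, 4 genes of the list were called higher (Plat, Serpinb2, Anxa2 and S100a10). Plat, the tissue plasminogen activator, was at 0 to 1 read in WT-Sham, 1.82 ± 0.70 CPM (SD, n = 3) in miKO-Sham, 33.2 ± 23.9 in WT-tFCI and 84.8 ± 45.2 in miKO-tFCI. Anxa2, which binds plasminogen and its activator at the surface, rose in WT-tFCI vs. WT-Sham by 5.61 (log2, SE 0.24, adjusted p = 1.1e-09) and in miKO-tFCI vs. WT-tFCI by 0.91 (SE 0.19, adjusted p = 0.00721). S100a10, the partner of Anxa2, was lower with HDAC3-miKO after Sham surgery by -1.13 (SE 0.29, adjusted p = 0.0129) and higher after tFCI by 1.48 (SE 0.23, adjusted p = 0.000995). Its interaction was 2.61 (SE 0.37, adjusted p = 0.00118). Serpinb2, an inhibitor of urokinase, had no read in any Sham library, 2 to 7 reads in WT-tFCI and 32 to 103 in miKO-tFCI. Plat, Anxa2 and S100a10 were highest in replicate 1 of either tFCI group, with 134, 673 and 113 CPM in miKO-tFCI replicate 1 against at most 75.0, 271 and 41.0 in replicates 2 and 3. In that library the summed endothelial and mural markers were at 232 CPM, against 88.6 and 90.6. Dendritic cell markers were at 333 CPM against 48.1 and 50.1, and monocyte and macrophage markers at 987 against 456 and 509. Neutrophil markers were lower there, at 887 CPM against 1166 and 1170, as were border-associated macrophage markers, at 339 against 631 and 816. Whether any such cells contribute to these levels was not tested.

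Tspan32 (ENSMUSG00000000244.17, chr7:143005046-143019644, plus strand) encodes a tetraspanin of blood cells. The WT-Sham libraries were at 18.5, 17.1 and 20.3 CPM, and those of WT-tFCI at 33.6, 38.3 and 40.2. With HDAC3-miKO the order was reversed, with 226, 216 and 179 CPM in miKO-Sham and 76.2, 105 and 102 in miKO-tFCI. None of the 4 groups overlapped another. The surgery difference in WT was 1.00 (log2, SE 0.16), while the difference of miKO-tFCI vs. miKO-Sham was -1.14. The genotype difference was 3.48 (SE 0.16) after Sham surgery and 1.33 (SE 0.15) after tFCI. Tspan32os on the other strand overlaps 4.35% of the exon bases and held 0 to 9 reads per library.

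Other tetraspanins divided. All 24 of the list were tested, of which 4 rose and 7 fell in miKO-Sham vs. WT-Sham, and 6 rose and 5 fell in WT-tFCI vs. WT-Sham. Cd81 and Cd9 were high throughout. Cd81 was at 2153 ± 120.2 CPM (SD, n = 3) in WT-Sham, 8405 ± 788 in miKO-Sham, 2140.2 ± 155 in WT-tFCI and 4121 ± 778 in miKO-tFCI, with an interaction of -1.02 (SE 0.23, adjusted p = 0.0238). Cd9 was at 783 ± 56.6, 3379 ± 209, 1194 ± 33.2 and 1752 ± 275 CPM in the same order, with an interaction of -1.56 (SE 0.21, adjusted p = 0.000761). Gm26728 overlaps Cd9 and R74862 overlaps Cd81 on the other strand. Tspan17 was at 0.999 ± 0.206 CPM in WT-Sham and 7.19 ± 2.61 in miKO-Sham, and its interaction was -2.16 (SE 0.46, adjusted p = 0.0179). Tspan18 fell by 3.39 (SE 0.30, adjusted p = 2.4e-06) with HDAC3-miKO after Sham surgery and by 2.26 (SE 0.29, adjusted p = 0.000241) after tFCI. All are edgeR quasi-likelihood tests with Benjamini-Hochberg adjustment.

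AB124611 (ENSMUSG00000057191.13, chr9:21526176-21545333, plus strand, 8 exons) is a protein-coding gene. Reads were few in WT-Sham, at 13 to 31 per library or 3.73, 3.14 and 1.33 CPM. It was at 125, 126 and 70.4 CPM in miKO-Sham, and only at 20.5, 22.5 and 19.5 in WT-tFCI. In miKO-tFCI it was at 64.8, 88.1 and 92.3 CPM, overlapping miKO-Sham and above every WT library. Within WT the tFCI over Sham difference was 2.95 (log2, SE 0.32). Between miKO and WT the difference was 5.30 (SE 0.32) after Sham surgery and 1.97 (SE 0.25) after tFCI, the latter the highest of the 10.

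Lgals3bp (ENSMUSG00000033880.11, chr11:118392751-118402092, minus strand, 6 exons) encodes a secreted glycoprotein that binds galectins. Counted per kilobase of exon, its level was the highest of the 10 in miKO-Sham (262 CPM per kilobase) and miKO-tFCI (278). In WT-Sham (58.8) and WT-tFCI (258) it came after Gpr84, which was at 95.1 and 328 CPM per kilobase. WT-Sham libraries were at 154, 184 and 165 CPM. The other 9 libraries were 751, 764 and 726 in miKO-Sham, 640.2, 775 and 791 in WT-tFCI and 617, 834 and 925 in miKO-tFCI. These 3 groups overlapped one another and none overlapped WT-Sham. The surgery difference in WT was 2.13 (log2, SE 0.14). The genotype difference was 2.16 (SE 0.14) after Sham surgery and 0.10 (SE 0.14) after tFCI.

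Among 9 galectins, 6 were tested, and Lgals9 and Lgals3 took different courses. Lgals9 was at 398 ± 3.44 CPM (SD, n = 3) in WT-Sham, 919 ± 37.2 in miKO-Sham, 724 ± 52.4 in WT-tFCI and 786 ± 74.7 in miKO-tFCI, and its interaction was -1.09 (log2, SE 0.18, adjusted p = 0.00300). Lgals3 rose by 5.44 (SE 0.31, adjusted p = 1.1e-08) after tFCI in WT, and with HDAC3-miKO by 2.22 (SE 0.29, adjusted p = 6.4e-05) after Sham surgery and 2.14 (SE 0.25, adjusted p = 0.000124) after tFCI, with an interaction of -0.08 (SE 0.36, adjusted p = 0.940). Lgals4 fell by 1.46 (SE 0.41, adjusted p = 0.0226) in miKO-Sham vs. WT-Sham by the same edgeR quasi-likelihood test.

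Nbl1 (ENSMUSG00000041120.6, chr4:139082284-139092993, minus strand, 5 exons) encodes a secreted antagonist of bone morphogenetic proteins of the DAN family. It was the gene of the 10 that was lower in miKO-Sham. WT-Sham libraries were at 13.9, 6.39 and 8.10 CPM and miKO-Sham libraries at 2.50, 1.11 and 1.28, with 8 to 18 reads. WT-tFCI libraries were at 71.6, 19.5 and 19.6 CPM and miKO-tFCI libraries at 173, 34.2 and 42.4. Replicate 1, the library of batch 1, was the highest in each group, 3.66-fold the mean of replicates 2 and 3 in WT-tFCI and 4.51-fold in miKO-tFCI. Summed markers of endothelial and mural cells were highest in the same libraries, at 147 CPM in WT-tFCI replicate 1 against 41.3 and 36.6, and at 232 in miKO-tFCI replicate 1 against 88.6 and 90.6. Several other sums were also highest in miKO-tFCI replicate 1, among them dendritic cell markers at 333 CPM against 48.1 and 50.1. Astrocyte markers were at 440 CPM against 166 and 179. Neutrophil, border-associated macrophage and microglia markers were lowest there, the last at 8317 CPM against 13198 and 16248. Whether any of these cell types contributes to the Nbl1 counts was not tested. In WT the surgery difference was 1.76 (log2, SE 0.23), 2.34 within batch 1 and 1.41 within batch 2. Between miKO and WT the difference was -2.63 (SE 0.32) after Sham surgery and 1.09 (SE 0.21) after tFCI, and 0.76 without miKO-tFCI replicate 1.

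Of 27 other genes of the DAN family and of bone morphogenetic protein signalling, 20 were tested. In miKO-Sham vs. WT-Sham 0 rose and 6 fell, while in WT-tFCI vs. WT-Sham 7 rose and 4 fell. Bmp1, a procollagen protease, was likewise lowest in miKO-Sham, at 11.1 ± 1.04 CPM (SD, n = 3) in WT-Sham, 2.94 ± 1.77 in miKO-Sham, 28.7 ± 4.47 in WT-tFCI and 34.5 ± 18.8 in miKO-tFCI. Its interaction was 2.16 (log2, SE 0.38, adjusted p = 0.00462). Id2, a target of the pathway, rose by 1.37 (SE 0.16, adjusted p = 1.7e-05) after tFCI in WT. With HDAC3-miKO it fell by 1.52 (SE 0.17, adjusted p = 1.5e-05) after Sham surgery and by 1.56 (SE 0.17, adjusted p = 5.0e-05) after tFCI by the edgeR quasi-likelihood test.

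Adap1 (ENSMUSG00000056413.16, chr5:139271876-139325622, minus strand) encodes an ArfGAP with a pair of PH domains that acts on Arf6 at the plasma membrane. WT-Sham libraries were close to one another, at 27.8, 27.9 and 27.1 CPM. The libraries of miKO-Sham (75.1, 76.3 and 72.1 CPM) and WT-tFCI (79.8, 71.7 and 79.4 CPM) overlapped. In miKO-tFCI it was lower than in either, at 55.6, 61.0 and 53.5 CPM, though still above WT-Sham. Within WT the tFCI over Sham difference was 1.48 (log2, SE 0.12). The genotype difference was 1.43 (SE 0.12) after Sham surgery and -0.44 (SE 0.12) after tFCI.

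All 32 other Arf GTPases, ArfGAPs and cytohesins of the list were tested. In miKO-Sham vs. WT-Sham 1 rose, Arap1, by 0.82 (log2, SE 0.15, adjusted p = 0.00108), and 8 fell. Arap3 fell by 1.24 (SE 0.15, adjusted p = 2.4e-05) after tFCI in WT and by 1.01 (SE 0.15, adjusted p = 0.000295) with HDAC3-miKO after Sham surgery. The 2 genes called in the interaction moved the other way from Adap1. Arap2 was at 7.75 ± 2.24 CPM (SD, n = 3) in WT-Sham, 3.50 ± 0.628 in miKO-Sham, 13.8 ± 1.06 in WT-tFCI and 16.7 ± 2.54 in miKO-tFCI, an interaction of 1.43 (SE 0.36, adjusted p = 0.0375). Cyth1 was at 37.4 ± 8.80, 22.6 ± 4.78, 37.7 ± 1.75 and 46.5 ± 7.56 CPM, an interaction of 1.00 (SE 0.25, adjusted p = 0.0389). These are edgeR quasi-likelihood tests with Benjamini-Hochberg adjustment.

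Tnfaip2 (ENSMUSG00000021281.15, chr12:111442469-111455018, plus strand, 12 exons in the merged annotation) is induced by TNF-alpha and takes part in forming tunnelling nanotubes between cells. WT-Sham libraries were at 19.6, 19.8 and 25.3 CPM, and WT-tFCI libraries at 36.6, 31.5 and 41.4. Levels with HDAC3-miKO were far higher, at 212, 224 and 146 CPM in miKO-Sham and 104, 119 and 109.7 in miKO-tFCI. As for Tspan32, no groups overlapped and the miKO libraries lay lower after tFCI than after Sham surgery. The surgery difference in WT was 0.76 (log2, SE 0.18), the smallest of the 10. Between miKO and WT the difference was 3.17 (SE 0.19) after Sham surgery and 1.60 (SE 0.18) after tFCI. Gm40578 on the other strand overlaps 6.3% of the exon bases and had at most 106 reads in a library, against 163 to 1617 for Tnfaip2.

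Of 21 other TNF-alpha-induced genes, exocyst subunits and genes of tunnelling nanotubes, 20 were tested. Of these, 2 rose and 4 fell in miKO-Sham vs. WT-Sham. Tnfaip3, the NF-kappaB inhibitor A20, was lower in miKO than in WT, by -0.66 (log2, SE 0.21, adjusted p = 0.0369) after Sham surgery and by -1.21 (SE 0.21, adjusted p = 0.00214) after tFCI. Tnfaip8 was at 68.2 ± 9.57 CPM (SD, n = 3) in WT-Sham, 30.2 ± 8.50 in miKO-Sham, 98.6 ± 9.78 in WT-tFCI and 83.9 ± 12.7 in miKO-tFCI, with an interaction of 0.94 (SE 0.22, adjusted p = 0.0268). Tnfaip8l1 rose by 2.32 (SE 0.50, adjusted p = 0.00217) after tFCI in WT and by 1.93 (SE 0.51, adjusted p = 0.0157) with HDAC3-miKO after Sham surgery, by the edgeR quasi-likelihood test.

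Set side by side, the signed genotype difference was higher after Sham surgery than after tFCI in 9 of the 10 genes, all but Nbl1, which is what they were chosen for. The counts that follow describe that choice, with the share of all genes beside them, and support nothing further. In miKO-Sham vs. WT-Sham 9 genes met the calling thresholds as higher, where 8.58% of all genes tested did, and Nbl1 as lower, where 6.8% did (15.4% in either direction). The groups overlapped in none of the 10, as in 33.2% of genes. After tFCI, Plaur, Tspan32, Nbl1, Tnfaip2 and AB124611 met the thresholds as higher (4.08% of all genes) and Gpr84 as lower (4.71%), whereas Slc2a6, Cyp4f18, Adap1 and Lgals3bp did not (8.79% in either direction). Here the groups did not overlap for 7 genes, against 22.9% of all genes. In the same comparison, 5 of 8 neutrophil, 3 of 9 monocyte and macrophage and 3 of 7 border-associated macrophage markers were higher and 5 of 10 microglia markers lower. The 9 neutrophil markers summed to 487 to 571 CPM in WT-tFCI and 887 to 1170.0 in miKO-tFCI, and to 633 to 1332 in WT-Sham and 1048 to 1112 in miKO-Sham. Much of this was Csf3r alone, at 544 to 587 CPM in WT-Sham and 730 to 784 in miKO-Sham. Csf3r was at 338 to 375 CPM in WT-tFCI and lower in miKO-tFCI, at 231 to 283, against the direction of the sum. The part of these markers in the genotype differences was not tested. In the interaction all 10 met them (3.82% of all genes), 9 below 0 (2.57%) and Nbl1 above (1.25%), from -5.25 (SE 0.26) for Slc2a6 to -1.56 (SE 0.25) for Tnfaip2, and 3.72 (SE 0.38) for Nbl1. In miKO-tFCI vs. miKO-Sham, Cyp4f18 and Nbl1 met the thresholds as higher (21.9% of all genes) and Gpr84, Tspan32 and Tnfaip2 as lower (13.9%), 5 of 10 where 35.8% of genes were called. In this last contrast the groups did not overlap for 6 genes, against 48.2% of all genes. With miKO-Sham replicates 1 and 2 summed, with replicate 2 taken as batch 1 or without either of them, the log2 values of the 10 genes moved by at most 0.50 (Nbl1) in miKO-Sham vs. WT-Sham and in the interaction. Scaling by library size alone moved the median log2 fold change of all genes by -0.27 in miKO-Sham vs. WT-Sham, by -0.10 in miKO-tFCI vs. WT-tFCI and by 0.17 in the interaction. Calls over all genes were then 834 higher and 2398 lower in place of 1411 and 1119 in the first, 491 and 1061 in place of 671 and 775 in the second, and 292 and 279 in place of 206 and 423 in the interaction. Of the 10 genes, 8 higher and 1 lower, 4 higher and 1 lower, and 1 above and 9 below 0 were then called.

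**Figure D4:**
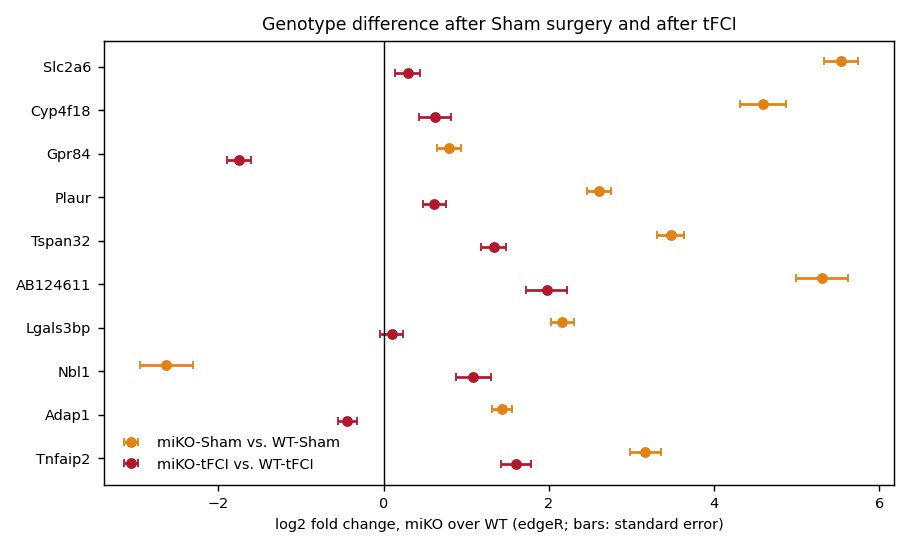
Log2 fold change of miKO over WT for each gene after Sham surgery (orange) and after tFCI (red), with standard errors as bars. Slc2a6 goes from 5.54 to 0.29, Gpr84 from 0.79 to -1.75 and Nbl1 from -2.63 to 1.09.

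The course of Slc2a6 over the 12 libraries was compared with that of each of the other 16450 genes tested, by the correlation of log2 CPM, as a description in which the libraries share their groups and batches. Lgals3bp was the closest of all (r = 0.991), followed by 5 genes outside the set, Smim3 (0.991), Cdkn2d (0.988), Cst7 (0.987), Rab3d (0.982) and Axl (0.977). Cyp4f18 ranked 7 (0.977), Plaur 25 (0.964), Adap1 88 (0.933) and AB124611 178 (0.891). Tspan32 (0.740), Tnfaip2 (0.719), Gpr84 (0.469) and Nbl1 (0.170) were less like it, and Tspan32 and Tnfaip2 were most like each other (r = 0.988). Cst7, the cathepsin inhibitor cystatin F, was at 11.4 ± 2.42 CPM (SD, n = 3) in WT-Sham, 328 ± 114 in miKO-Sham, 236 ± 22.5 in WT-tFCI and 501 ± 73.8 in miKO-tFCI. Axl, a receptor tyrosine kinase for the bridging ligand Gas6, was at 11.6 ± 2.56, 87.7 ± 14.7, 77.3 ± 5.57 and 139 ± 31.9 CPM in the same order.

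**Figure D5:**
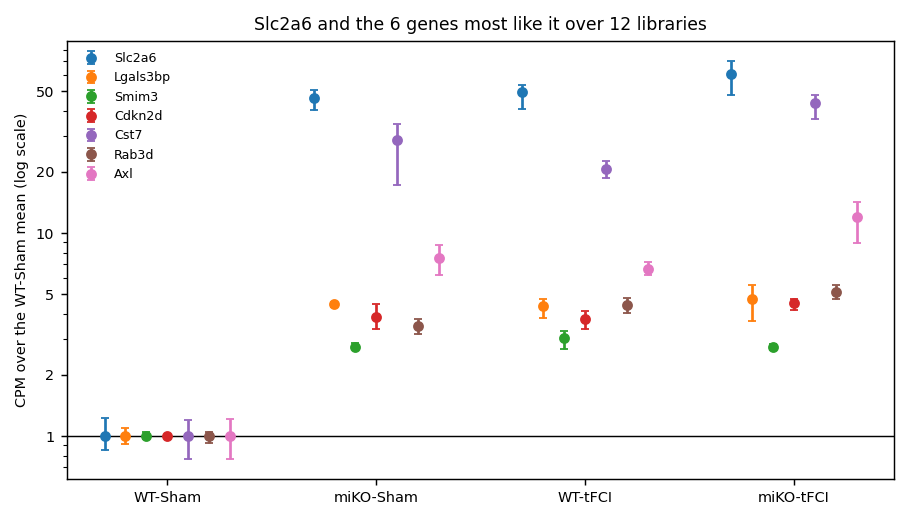
Group mean of CPM divided by the WT-Sham mean (log scale) for Slc2a6, Lgals3bp and the 5 other genes most like Slc2a6 over the 12 libraries, with bars from the lowest to the highest library. In every gene the 3 groups with HDAC3-miKO or tFCI lie above WT-Sham, Slc2a6 at 46.5-fold, 49.4-fold and 60.6-fold.

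Taking the 9 lists around these genes as a whole, 139 of 172 genes were tested. The lists were chosen with earlier results of these data known, so their shares beside those of all genes are a description and no test. In WT-tFCI vs. WT-Sham 37 rose and 22 fell (42.4%, against 32.6% of all genes), and in miKO-Sham vs. WT-Sham 16 rose and 34 fell (36.0%, against 15.4%). In miKO-tFCI vs. WT-tFCI 11 rose and 14 fell (18.0%, against 8.79%). In the interaction 12 genes were called, 5 above and 7 below 0 (8.63%, against 3.82%). That last count was 7 without WT-Sham replicate 2 or 3 and 6 without WT-tFCI replicate 2 or 3, and 18 with miKO-Sham replicate 2 taken as batch 1. In miKO-Sham vs. WT-Sham 40 were called with miKO-Sham replicates 1 and 2 summed, in place of 50.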

How the data were processed

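RNA from sorted microglia was sequenced as paired ends after SMART-Seq v4 amplification, a kit that does not mark strand. The deposited values are counts of reads per gene, which the authors made without normalization. The submitters' processing notes name Trim Galore, FastQC 0.11.9, HISAT2 2.2.1, SAMtools and HTSeq 1.99.2. Between 61.5% and 69.3% of reads per library were assigned to no gene and stayed out of library sizes. GENCODE M21 (GRCm38) gave symbols and positions for 55141 of 55401 identifiers after their versions were removed, and promoters came from RefSeq.

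The quasi-likelihood test of edgeR 4.0.16 in R 4.3.3 was run on the counts (filterByExpr, TMM, group and batch as terms, all 12 libraries in one fit), which kept 16451 genes. Following the study's thresholds, a gene was called where its adjusted p (Benjamini-Hochberg) was under 0.05 and its log2 fold change above 0.58 in size. Log2 CPM used a prior count of 2. The steps were tested on simulated data. The members and the gene lists were chosen with earlier results of these data known. A test of the members in WT-tFCI vs. WT-Sham had been planned, but the interaction that chose them contains this difference. Their values and calls are therefore given as a description only. Named beside the members are Hdac3 and, in each list and comparison of groups, the called gene that changed most in either direction among those whose groups do not overlap and whose highest library in either group exceeds 3 counts. Also named are list genes called in the interaction, the 5 other genes most like Slc2a6, and genes that overlap a member. DESeq2 1.42.0, other scalings and filters, a fit without batch, a replicate block, the groups compared alone, batch 2 alone and leaving out each library were tried as alternatives. Summing miKO-Sham replicates 1 and 2, or taking replicate 2 as batch 1, was chosen after seeing the data.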

Additional observations from a re-analysis of the deposited data

Results flagged for a closer look

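In 12 genes of the surrounding lists the genotype effect after tFCI differed from that after Sham surgery by the interaction test of edgeR (quasi-likelihood, adjusted p under 0.05, absolute log2 difference above 0.58). The differences on the log2 scale were below 0 for Plat (-3.69), Hcar2 (-3.14), Gpr65 (-2.34), Tspan17 (-2.16), Cd9 (-1.56), Lgals9 (-1.09) and Cd81 (-1.02). They were above 0 for S100a10 (2.61), Bmp1 (2.16), Arap2 (1.43), Cyth1 (1.00) and Tnfaip8 (0.94). Plat rests on 0 to 1 read per library in WT-Sham.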

How the results depend on the processing

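Over 23 alternatives, 0 of 1135 values of the 10 genes changed sign where called, and the count of the 10 called stayed within 1.5 times the reported count in every comparison. As a description, the difference of WT-tFCI and WT-Sham stayed above 0 for all of them, lowest in Tnfaip2 (0.60 to 0.85) and from 1.38 to 1.96 in Nbl1. Nbl1 fell out where 10 counts were required in every library. Among list genes, miKO-tFCI vs. WT-tFCI gave 13 calls without a batch term in place of 25. The interaction gave 20 without a filter on low counts, 6 without a batch term and 6 to 18 with 1 library left out, in place of 12. Requiring 10 counts in every library left 43 calls in miKO-tFCI vs. miKO-Sham in place of 65, with fewer genes tested. The cause of the other changes was not tested. Same-numbered replicates of different groups correlated at -0.06 to 0.67 in their deviations from the group mean, so that the numbers do not pair all samples, and with a replicate block 10 genes were called in WT-tFCI vs. WT-Sham, 10 in miKO-Sham vs. WT-Sham, 6 in miKO-tFCI vs. WT-tFCI and 10 in the interaction. With 3 libraries per group, genes with few reads, such as Nbl1 in miKO-Sham (8 to 18 reads), carry a large counting error.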

Other observations

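The nearest tested gene on each side of the 10 genes, 20 neighbours in all, was examined after the values were seen. In miKO-Sham vs. WT-Sham 5 neighbours rose (8.58% of all genes) and 2 fell (6.8%), and in WT-tFCI vs. WT-Sham 6 rose (20.9%) and 0 fell. R74862, 2140 bases after Tspan32, was the neighbour called in the interaction (log2 -1.02, edgeR quasi-likelihood adjusted p = 0.0310), and it overlaps Cd81 on the other strand. Exoc3l4, 10791 bases before Tnfaip2, rose by 2.18 (log2, edgeR quasi-likelihood adjusted p = 0.00312) after tFCI in WT. With HDAC3-miKO after Sham surgery it rose by 1.83 (adjusted p = 0.0202, same test). It rests on 226 reads over all 12 libraries, and Gm10425 on the other strand overlaps 15.7% of its exon bases.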
